A study of Mus musculus with 8 samples.

Results

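Hox genes encode homeodomain transcription factors, and in mammals they lie in 4 clusters, Hoxa to Hoxd, with paralog numbers from 1 at one end of a cluster to 13 at the other. They were taken here as every gene whose symbol is Hox, a cluster letter from a to d and a number, which gave 39 of the 40800 genes in the deposited table: 11 in Hoxa, 10 in Hoxb, 9 in Hoxc and 9 in Hoxd. In the embryo the clusters are switched on in order along the body axis, low paralog numbers from the hindbrain and neck backwards and high numbers only towards the tail, and adult neurons and connective tissue cells keep much of this code. Groups 4 to 8 are known from cervical and thoracic levels, group 9 from the thorax, and groups 10 and 11 from the lumbar and sacral levels that serve the hind limb. Cofactors of the Pbx, Meis and Pknox families bind DNA with Hox proteins, retinoic acid and Cdx factors help to start the clusters in the embryo, and Polycomb and Trithorax proteins hold them off or on afterwards.

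RNA was sequenced from dorsal root ganglia, which hold the cell bodies of sensory neurons at each segment of the spinal cord. The animals were 4 wild-type C57BL/6 mice and 4 mutants, homozygous for a Tmem184b gene trap on the same background, and each was 6 months old. A gene trap is an inserted cassette that captures splicing, and the mutants kept a small part of the transcript. The labels name no axial level, number of ganglia, sex, litter or dissection day, and a level per gene is therefore an average over whatever ganglia and cells went into each sample. Samples keep their label's number, which is 1, 3, 4 or 8 for wild types and 1 to 4 for mutants, and values are listed in that order. Each sample is given as 1 mouse, so p-values measure the spread between these 8 animals, and the labels do not say whether the wild types were littermates of the mutants.

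With 6183618 to 7983821 reads in a library, a single read stood for 0.125 to 0.162 CPM, the usual measure of reads scaled to a common library total. Tmem184b itself had a log2 CPM of 7.36 to 7.51 in wild types and 2.47 to 3.10 in mutants, with a fitted difference of -4.64 (SE 0.113, limma adjusted p = 2.57e-12). All 9 sensory neuron markers were tested, with a summed level of 10267 to 11220 CPM in wild types and 10644 to 11294 CPM in mutants, and 1 of them, Avil, was called lower (-0.22 log2, limma adjusted p = 0.0203). The 4 markers of satellite glia, all tested, summed to 497 to 565 CPM in wild types and 565 to 802 CPM in mutants, and the 8 of fibroblasts, all tested, to 625 to 1248 CPM and 803 to 1197 CPM. In each list 1 marker was called higher, Glul (0.49, limma adjusted p = 0.0101) and Dcn (0.60, limma adjusted p = 0.00820). The 16 skeletal muscle markers, 10 of them tested and 0 called, summed to 17.1 to 116 CPM and 42.1 to 390 CPM. All 10 tested muscle markers were higher in mutants, with a median difference of 1.55 log2 and 7 at an unadjusted p under 0.05. Over all genes tested, 64.4% were higher and 21.3% reached that p. All 4 satellite glia and all 8 fibroblast markers were also higher. The 7 Schwann cell markers, all tested, were 6 higher and 1 lower, with 1 called higher. The sensory neuron markers were 4 higher and 5 lower. The 10 markers of spinal cord and other central nervous cells summed to 46.6 to 85.0 CPM and 56.7 to 86.0 CPM. Of these 6 were tested, 5 higher and 1 lower with 0 called and 2 at an unadjusted p under 0.05, while Opalin of oligodendrocytes and Mnx1 of motor neurons had no read in any sample. The part of these cell types in the Hox values was not tested, and fewer cells of a type cannot be told apart from less RNA per cell in such samples. The libraries of wild type 4 and mutant 3 stood apart from the other 6 in the genes of paralog groups 10 and 11, and results that rest on them are given with and without them.

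The ganglia expressed Hox genes of all 4 clusters, from group 1 to group 11. Of the 39 genes, 25 had at least 3 reads in every sample and 6 in some samples, while 8 never reached 3 reads. Those 8 were 7 genes of the tail end of the clusters, Hoxa11, Hoxa13, Hoxb13, Hoxc12, Hoxc13, Hoxd12 and Hoxd13, and Hoxb1, a gene of hindbrain segments. Hoxa13, Hoxb1, Hoxd12 and Hoxd13 had no read in any of the 8 samples. A count of 0 allowed up to 3 reads, or 0.376 to 0.485 CPM depending on the library, for counting error only.

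The transcript pattern turned on the Hoxd cluster on mouse chromosome 2, plus strand, where Hoxd11, Hoxd10 and Hoxd9 follow each other in the direction of transcription. The sequences before their start sites are shown because Hoxd10 and Hoxd11 were low together in the same 2 libraries and Hoxd9, the next gene, was not. They were read from RefSeq entries on GRCm38.p6, which held 24 promoter entries for 22 of the 39 Hox genes, and each is printed 5′ to 3′ on the plus strand and ends before the annotated transcript. Capitals mark matches, on either strand, to 6 short motifs. These were the TATA box, spelled TATAAA, the CCAAT box, spelled as in its name, the GC box, spelled GGGCGG, a core bound by tail-end Hox and Cdx proteins, spelled TTTATG, a joint site of Pbx and Hox proteins, spelled TGATTNAT, and the half-site of retinoic acid receptors, spelled AGGTCA. No matches overlapped in the sequences shown.
Hoxd11 (chr2:74679308-74679556): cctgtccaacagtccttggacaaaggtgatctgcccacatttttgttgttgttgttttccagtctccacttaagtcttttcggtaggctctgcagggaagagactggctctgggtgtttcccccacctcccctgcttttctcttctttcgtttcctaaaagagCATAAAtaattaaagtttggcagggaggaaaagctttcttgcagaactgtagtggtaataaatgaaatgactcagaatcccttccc
Hoxd10 (chr2:74691641-74691890): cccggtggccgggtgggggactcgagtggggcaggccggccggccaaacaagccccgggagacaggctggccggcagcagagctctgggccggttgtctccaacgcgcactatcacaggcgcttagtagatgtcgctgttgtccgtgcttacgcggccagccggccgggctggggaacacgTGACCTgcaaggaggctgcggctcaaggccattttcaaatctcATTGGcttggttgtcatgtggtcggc
Hoxd9 (chr2:74697513-74697726): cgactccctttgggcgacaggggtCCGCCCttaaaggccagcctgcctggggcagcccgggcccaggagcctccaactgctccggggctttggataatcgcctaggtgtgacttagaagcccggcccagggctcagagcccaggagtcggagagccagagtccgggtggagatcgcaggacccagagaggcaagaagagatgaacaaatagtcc

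Over the 250 bases before the RefSeq start shown, Hoxd11 had 44.8% G or C, 2 CpG pairs and 1 match to TTTATG. RefSeq gives Hoxd11 another start inside the GENCODE gene, whose window (chr2:74682073-74682322, not printed) had 60.4% G or C, 20 CpG pairs, 1 GC box and 1 match to TGATTNAT. Which of the starts these libraries used was not tested. Hoxd10 had 65.6% G or C, 20 CpG pairs, 1 CCAAT box and 1 AGGTCA half-site. Hoxd9 had 65.2% G or C, 13 CpG pairs and 1 GC box. The sequences of Hoxd9 and Hoxd11 are printed up to the GENCODE M21 start, which lies inside these windows. Neither Hoxd11 window shared any of the 6 motifs with that of Hoxd10. Among windows of the same length before all 32851 starts in that table, the median was 52.4% G or C and 6 CpG pairs. TTTATG was present in 10.8% of them, CCAAT in 33.8%, GGGCGG in 32.7% and AGGTCA in 14%, while TATAAA was present in 12.4% and TGATTNAT in 2.82%. A match describes the letters only, and binding was not measured.

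**Figure D1:**
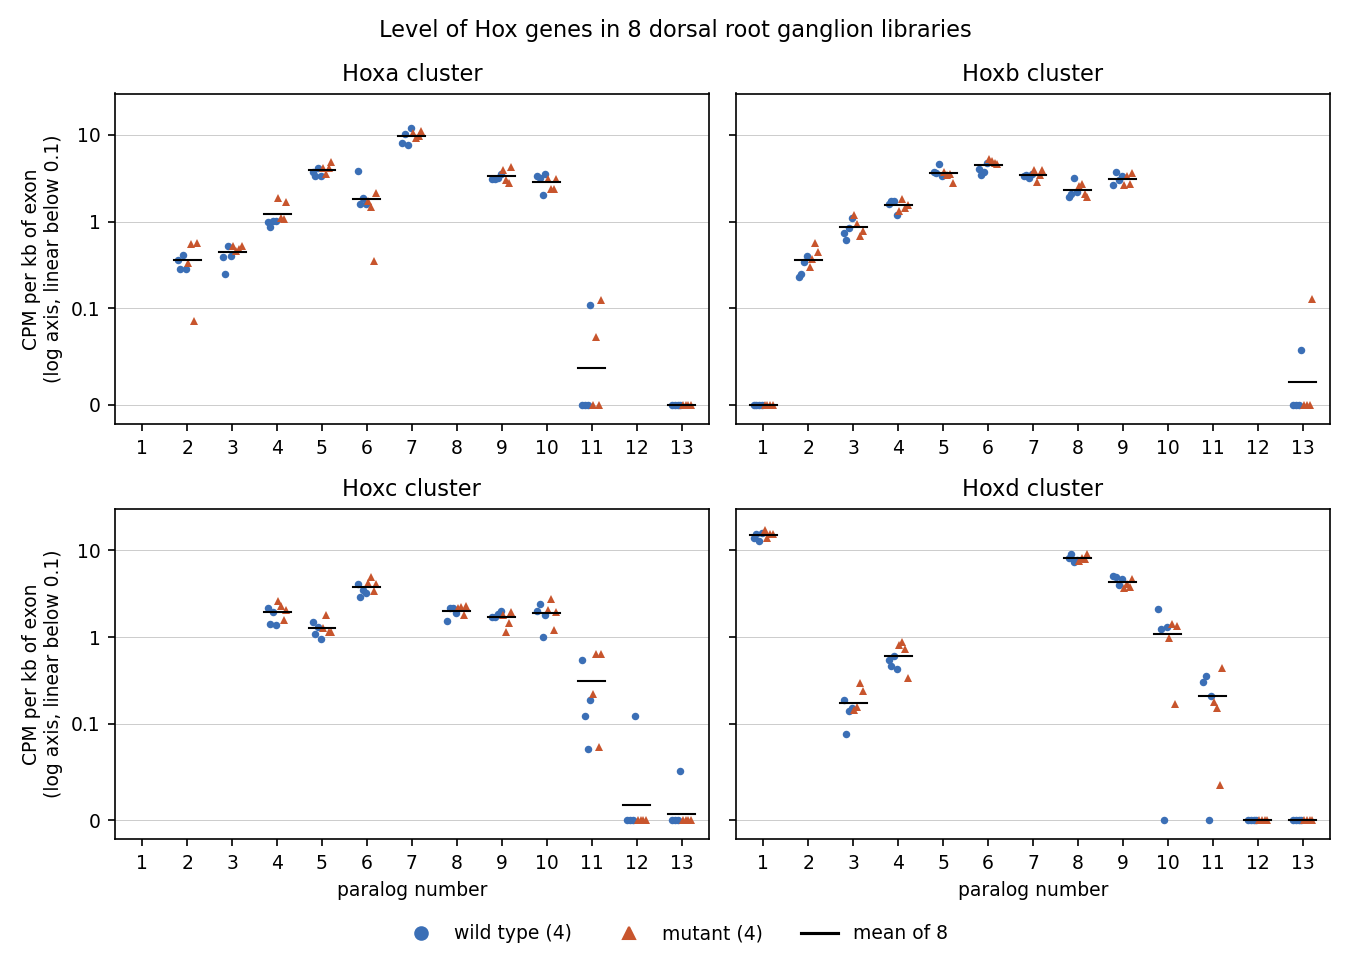
Level of every Hox gene but 1 as CPM per kb of exon (log axis, linear below 0.1) against paralog number, 1 panel per cluster, with a point per library (circles wild type, triangles mutant, 4 each) and a line at the mean of 8. Levels are highest for Hoxd1, Hoxa7 and Hoxd8, fall at groups 10 and 11, and lie at or near 0 for groups 12 and 13.

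Levels of different genes were compared as CPM per kb of exon, the mean of all 8 samples with its SD. The length was that of all annotated exons of a gene together, from 874 bases for Hoxa6 to 6014 for Hoxa3. Which transcripts were in use was not tested, so the order and the shares below rest on these lengths. Hoxd1, known from pain-sensing neurons, stood highest at 15.0 ± 1.43 CPM per kb (SD, n = 8). Hoxa7, a gene of thoracic levels, followed at 9.79 ± 1.44 and Hoxd8 at 8.10 ± 0.664. The lowest sample for Hoxd1 lay above the highest for Hoxa7, and the lowest for Hoxd8 lay above the highest for Hoxb6 (4.45 ± 0.641), whereas the ranges of Hoxa7 and Hoxd8 overlapped. From there the order ran without a break. Hoxd9, Hoxa5, Hoxc6, Hoxb5, Hoxb7, Hoxa9 and Hoxb9 lay between 4.36 and 3.14 CPM per kb, and 32 of the 34 pairs of neighbours in the order overlapped in range. Toward the tail end, Hoxa10 stood at 2.88 ± 0.545, Hoxc10 at 1.89 ± 0.567 and Hoxd10 at 1.07 ± 0.688, above Hoxc11 at 0.314 ± 0.251 and Hoxd11 at 0.210 ± 0.152. Low levels were also found at the front end, with Hoxb2 at 0.364 ± 0.113 and Hoxa2 at 0.360 ± 0.154.

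Summed over genes, paralog groups 4 to 8 held 57.8% of the Hox level per kb, groups 1 to 3 held 20.1%, group 9 held 14.6% and groups 10 to 13 held 7.48%. Most of the share of groups 1 to 3 came from Hoxd1. By cluster, Hoxd held 34.2%, Hoxa 27.8%, Hoxb 23.0% and Hoxc 15.0%. The limb-field genes Tbx4, Tbx5 and Pitx1 had 0 to 5 reads per sample.

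Some Hox genes overlap other transcripts, and their values are less certain. In the GENCODE M21 annotation (GRCm38), 61.1% of the 31-base words of Hoxd3 and 49.1% of those of Hoxd4 also occur in other genes, as the exons of the pair overlap each other and Gm28230. For Hoxa2 the share was 13.7%, for Hoxd11 10.5%, for Hoxa3 8.24%, for Hoxc10 7.34%, for Hoxc5 4.55% and for Hoxd10 4.20%, and it was at most 3.32% for the remaining genes. Hoxd10 and Hoxd11 both share exon bases with Gm28309, a transcript that runs across them, so reads from those bases cannot be told apart. Among others, antisense transcripts lie across Hoxa3, Hoxa4, Hoxa7, Hoxa11, Hoxb2, Hoxb3, Hoxb5, Hoxd3 and Hoxd4, and whether reads were counted by strand is not given in the sources used here.

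The comparison of mutant with wild type asked whether the axial code of the ganglia differed between genotypes. No Hox gene passed the test. Of the 39 genes, 27 had a log2 CPM above 0 in at least 4 of 8 samples and were tested, and 0 had a limma adjusted p under 0.05, beside 5.46% of all 15030 genes tested. At an unadjusted p under 0.05 there was 1 gene, Hoxb6, beside 21.3% of all genes, and voom on the recovered reads called 0, with 1 at the unadjusted threshold. The other 12 were not tested. Among these Hoxa2, Hoxc11 and Hoxd3 had at most 9 reads in any sample, and 8 are the genes that never reached 3 reads.

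**Figure D2:**
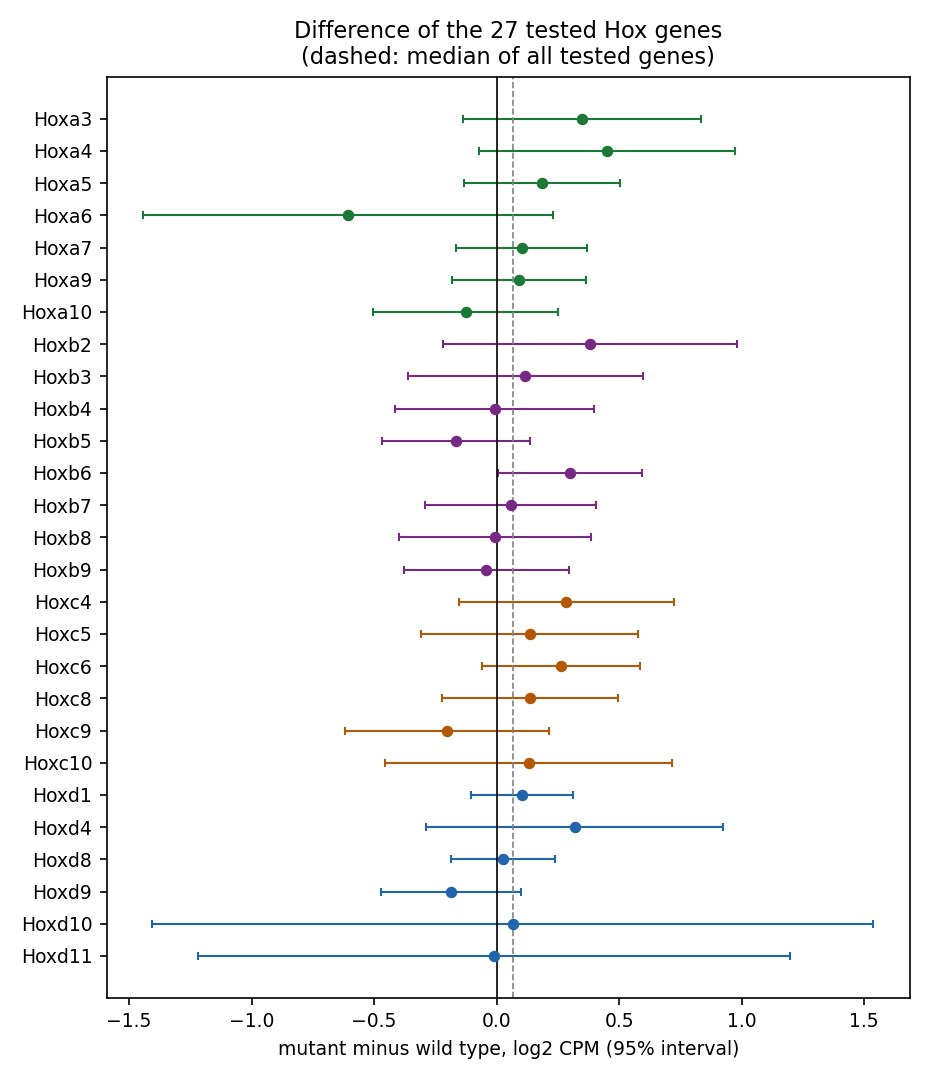
Fitted difference, mutant minus wild type, in log2 CPM for the 27 tested Hox genes, with 95% intervals coloured by cluster, a solid line at 0 and a dashed line at the median of all tested genes (0.066). Only the interval of Hoxb6 excludes 0 before adjustment, and those of Hoxd10 and Hoxd11 are the widest together with Hoxa6.

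The fitted differences were small. Their median was 0.10 on the log2 scale, against 0.066 over all genes tested, and their median size without regard to sign was 0.135, against 0.140. They ran from -0.61 for Hoxa6 to 0.45 for Hoxa4. The 95% interval lay within a log2 difference of 1 in either direction for 24 of the 27 genes, and within 0.5 for 11. As deposited 18 genes were higher and 9 lower in the mutant, but 14 were higher and 13 lower after centring each sample on its median, 12 and 15 after quantile normalization, and 20 and 7 with voom, so no direction is read from the balance. Of all genes tested, 64.4% were higher as deposited.

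By position in the cluster, all 4 tested genes of groups 1 to 3 had a positive fitted difference (median 0.23), as did 11 of 15 genes of groups 4 to 8 (median 0.13), 1 of 4 in group 9 (median -0.11) and 2 of 4 in groups 10 to 13 (median 0.03). None of these genes passed the test. By cluster, the fitted difference was positive for 5 of 7 genes in Hoxa, 4 of 8 in Hoxb, 5 of 6 in Hoxc and 4 of 6 in Hoxd. All 39 genes together reached 210 ± 10.03 CPM in wild types against 220 ± 16.02 CPM in mutants (SD, n = 4 each).

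Among genes of the front end, Hoxa3, which patterns the neck and throat, had 2.38, 1.503, 3.11 and 2.40 CPM in wild types and 3.14, 2.75, 2.93 and 3.15 CPM in mutants. Hoxb2, a hindbrain gene, had 0.794, 0.877, 1.19 and 1.39 CPM and 1.05, 1.29, 2.002 and 1.57 CPM. For both genes the groups overlapped. The fitted difference was 0.35 (SE 0.228, limma adjusted p = 0.407) for Hoxa3 and 0.38 (SE 0.281, limma adjusted p = 0.469) for Hoxb2. Hoxd1 had 26.0, 28.6, 23.6 and 29.4 CPM in wild types and 32.1, 25.7, 28.9 and 28.7 CPM in mutants. Mutant 1 was the highest and wild type 4 the lowest, and the difference was 0.10 (SE 0.097, limma adjusted p = 0.589), with a 95% interval of -0.10 to 0.31.

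In the middle groups, Hoxa4 was the 1 Hox gene of the 27 whose groups did not overlap, as against 12.4% of all genes tested. It had 1.59, 1.38, 1.63 and 1.64 CPM in wild types and 2.99, 1.78, 1.69 and 2.72 CPM in mutants. The lowest mutant, mutant 3, exceeded the highest wild type by less than the worth of 1 read, and the difference of 0.45 did not pass the test (SE 0.245, limma adjusted p = 0.313). Hoxa6, a gene of the neck and thorax, had 3.33, 1.38, 1.63 and 1.39 CPM against 1.49, 1.29, 0.308 and 1.86 CPM. Wild type 1 was high and mutant 3, with 2 reads, was low, while the other 6 samples ran from 8 to 13 reads. The difference of -0.61 had an SE of 0.391 (limma adjusted p = 0.400).

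Hoxb6, the gene with the smallest p, had 7.94, 6.76, 7.26 and 9.35 CPM in wild types and 10.3, 9.70, 9.39 and 9.15 CPM in mutants. Wild types 1, 3 and 4 lay below all 4 mutants, and wild type 8 lay within their range. The difference was 0.30 (SE 0.138, 95% interval 0.01 to 0.59), with an unadjusted p of 0.0467 and a limma adjusted p of 0.225.

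The gene of highest CPM in Hoxa was Hoxa7, with 23.3, 29.6, 22.2 and 34.2 CPM in wild types and 30.03, 26.2, 27.7 and 32.0 CPM in mutants. The mutants lay inside the range of the wild types, and the difference was 0.10 (SE 0.126, limma adjusted p = 0.693). In Hoxb it was Hoxb5, a gene of the neck and shoulder level, with 10.3, 10.02, 12.9 and 9.35 CPM against 10.3, 9.70, 9.85 and 7.87 CPM. Wild type 4 was highest and mutant 4 lowest, and the difference was -0.17 (SE 0.141, limma adjusted p = 0.538). In Hoxc it was Hoxc6, known for setting motor neuron identity at forelimb levels, with 9.84, 7.01, 8.45 and 7.70 CPM against 10.01, 11.8, 8.16 and 9.87 CPM. Mutant 3 lay within the wild-type range and the other 3 mutants above it, with a difference of 0.26 (SE 0.151, limma adjusted p = 0.343).

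The other 10 tested genes outside groups 9 to 13 were Hoxa5, Hoxb3, Hoxb4, Hoxb7, Hoxb8, Hoxc4, Hoxc5, Hoxc8, Hoxd4 and Hoxd8. Their fitted differences ran from -0.01 for Hoxb4 to 0.32 for Hoxd4, and their limma adjusted p-values from 0.460 for Hoxc4 to 0.989 for Hoxb8. Hoxd8, which lies next to Hoxd9, had the narrowest interval of these 10, -0.18 to 0.24 around a difference of 0.03.

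Group 9, of which Hoxc9 is known to set thoracic identity, spread more between mutants than between wild types in its summed level. Its 4 genes together had 39.1, 41.6, 38.4 and 43.3 CPM in wild types and 40.8, 37.2, 34.5 and 47.6 CPM in mutants. Mutant 4 was highest and mutant 3 lowest. The means were 40.6 ± 2.29 CPM in wild types and 40.02 ± 5.68 CPM in mutants (SD, n = 4 each). Hoxb9, the gene of highest number in Hoxb above the floor, had 6.83, 9.64, 7.70 and 8.59 CPM against 6.72, 8.73, 7.08 and 9.30 CPM, with overlapping groups and a difference of -0.04 (SE 0.158, limma adjusted p = 0.913). Hoxd9 differed by -0.19 (SE 0.134, limma adjusted p = 0.458), Hoxc9 by -0.20 (SE 0.195, limma adjusted p = 0.599) and Hoxa9 by 0.09 (SE 0.128, limma adjusted p = 0.734).

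Groups 10 to 13, like group 9, varied more between libraries than between genotypes. Their summed level was 21.0, 19.2, 8.74 and 19.2 CPM in wild types and 17.0, 17.6, 10.6 and 20.02 CPM in mutants, or 17.0 ± 5.58 and 16.3 ± 4.01 CPM (SD, n = 4 each). The difference in the log2 of their summed CPM per kb was 0.007, and it was -0.32 without wild type 4, 0.23 without mutant 3 and -0.09 without both. Wild type 4 and mutant 3 were the lowest of their genotype and of all 8, and the other 6 libraries of both genotypes lay between 17.0 and 21.0 CPM.

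Hoxd10, a lumbar gene needed for hind-limb motor neurons (ENSMUSG00000050368, chr2:74691924-74695105 in GRCm38), had 24, 18, 0 and 19 reads in wild types and 12, 16, 2 and 17 reads in mutants, or 3.81, 2.25, 0 and 2.40 CPM against 1.79, 2.59, 0.308 and 2.43 CPM. The 0 reads of wild type 4 allow up to 0.444 CPM at the floor of 3 reads. By exact 95% Poisson intervals the 2 reads of mutant 3 allow 0.0373 to 1.11 CPM, whereas the lower bounds of 5 of the other 6 libraries lay at or above 1.34 CPM and that of mutant 1 at 0.926 CPM. Against the median of those 6 libraries, 2.42 CPM, the level in wild type 4 was at least 5.43-fold lower at a floor of 3 reads per library. With 1 low library in each genotype, the fitted difference was 0.07 with an SE of 0.689 (95% interval -1.41 to 1.54, limma adjusted p = 0.970), so the data limit this gene's genotype difference only loosely. Without both libraries the difference was -0.26 (limma adjusted p = 0.638). Without wild type 4 alone it was -0.78, and without mutant 3 alone 0.59.

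Hoxd11, a sacral gene that also shapes the forearm and kidney (ENSMUSG00000042499, chr2:74679557-74687016), had 8, 12, 0 and 7 reads in wild types and 5, 4, 1 and 13 reads in mutants. As levels these were 1.27, 1.503, 0 and 0.884 CPM against 0.747, 0.647, 0.154 and 1.86 CPM. The same 2 libraries were lowest, at 0 and 1 read, although the counts are small and the upper bound of mutant 3, 0.858 CPM, exceeds the level of mutants 1 and 2. The level in wild type 4 was at least 2.42-fold below the median of the other 6 libraries, 1.08 CPM, at the same floor. The fitted difference between genotypes was -0.01 (SE 0.565, 95% interval -1.22 to 1.20, limma adjusted p = 0.995), and without both libraries it was -0.22 (limma adjusted p = 0.793).

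Hoxc10, which acts with Hoxd10 at lumbar levels (ENSMUSG00000022484, chr15:102966796-102971893), had 24, 37, 13 and 27 reads in wild types and 26, 32, 15 and 26 in mutants, or 3.81, 4.63, 1.93 and 3.41 CPM against 3.88, 5.17, 2.31 and 3.72 CPM. Wild type 4 was 1.997-fold and mutant 3 was 1.67-fold below the median of the other 6 libraries, 3.85 CPM. The fitted difference was 0.13 (SE 0.274, limma adjusted p = 0.830), and 0.10 without both libraries. Hoxc11 had 7, 2, 1 and 3 reads against 3, 8, 1 and 9 reads, lowest again in wild type 4 and mutant 3, at 1 read each, and too few to test. It averaged 0.472 ± 0.436 CPM in wild types and 0.796 ± 0.584 CPM in mutants (SD, n = 4 each).

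Hoxa10, which acts on the lumbar spine (ENSMUSG00000000938, chr6:52231197-52240854), had 10.95, 10.5, 6.67 and 11.5 CPM in wild types and 10.2, 7.76, 7.70 and 10.2 CPM in mutants. Wild type 4 was 1.55-fold and mutant 3 was 1.34-fold below the median of the other 6 libraries, but mutant 2 stood almost as low as mutant 3. The fitted difference was -0.13 (SE 0.177, limma adjusted p = 0.736), and -0.24 without both libraries (limma adjusted p = 0.427).

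**Figure D3:**
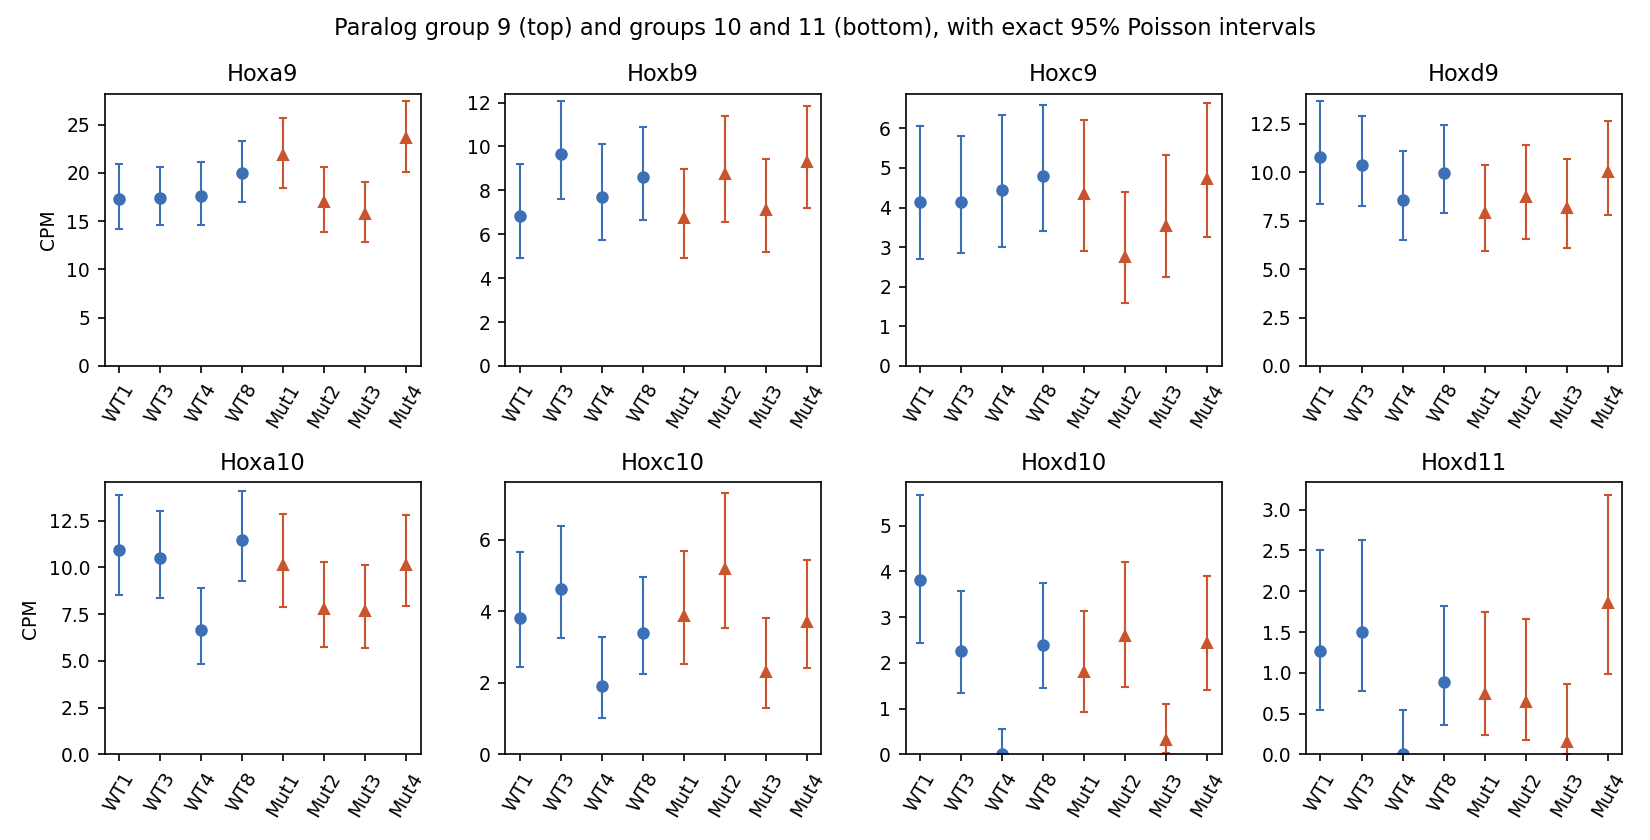
Level in CPM (each y axis starts at 0) of the 4 genes of group 9 and of Hoxa10, Hoxc10, Hoxd10 and Hoxd11 in each library, circles wild type and triangles mutant, with exact 95% Poisson intervals that cover counting error only. Hoxd10 is at 0 in wild type 4 and at 0.308 CPM in mutant 3, while the group 9 genes of those libraries lie close to the others.

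Genes of group 9, next to them in the clusters, had levels in these 2 libraries close to those of the others. For Hoxa9, Hoxb9, Hoxc9 and Hoxd9 the median of the other 6 libraries was 0.95 to 1.16 times the level in wild type 4 and 1.19 to 1.22 times that in mutant 3. No test was made of this contrast, since the 2 libraries were singled out after their values were seen.

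Reads of groups 10 to 13 were also counted as a share of the reads of groups 9 to 13 in the same cluster, a ratio within a library that library size does not move. In Hoxd the share was 32.0%, 26.5%, 0% and 24.8% in wild types and 24.3%, 27.03%, 5.36% and 30% in mutants. In wild type 4 it was 0 of 58 reads, which allows a share of up to 5.17% at the floor of 3 reads (exact Clopper-Pearson upper bound 6.16%), and in mutant 3 it was 3 of 56 reads (exact Clopper-Pearson 95% interval 1.12% to 14.9%). The lower bounds of the other 6 libraries ran from 14.8% to 23.02%, so only that of mutant 1 fell below the upper bound of mutant 3. The mean share was 20.8 ± 14.22% in wild type and 21.7 ± 11.1% in mutant (SD, n = 4 each), and 27.8 ± 3.77% and 27.1 ± 2.86% without the 2 libraries (SD, n = 3 each).

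In Hoxc the share was 54.4%, 54.2%, 31.8% and 45.7% in wild types and 50.0%, 70.2%, 41.0% and 51.5% in mutants. Wild type 4 and mutant 3 were again the lowest, but their exact intervals, 18.6% to 47.6% and 25.6% to 57.9%, overlapped those of most other libraries. In Hoxa the share was 38.8%, 37.7%, 27.4% and 37.1% against 31.8%, 31.8%, 32.9% and 30.7%. There wild type 4 was lowest and mutant 3 was the highest of the mutants, so the low position of mutant 3 held in Hoxc and Hoxd and not in Hoxa. The mean Hoxa share was 35.2 ± 5.24% in wild type and 31.8 ± 0.908% in mutant (SD, n = 4 each). Without the 2 libraries it was 37.8 ± 0.867% and 31.4 ± 0.650% (SD, n = 3 each), and the genotypes did not overlap. The exact intervals of single libraries did overlap, and this difference was not tested.

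**Figure D4:**
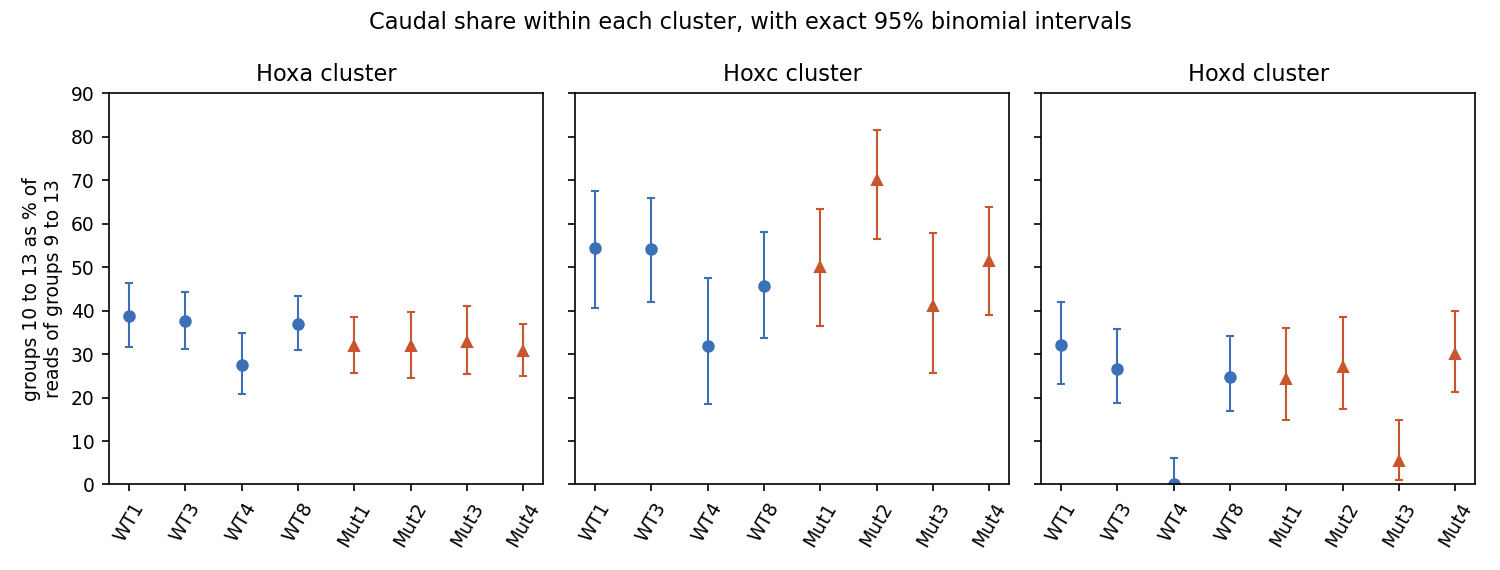
Reads of paralog groups 10 to 13 as a percent of reads of groups 9 to 13 in the Hoxa, Hoxc and Hoxd clusters, per library (circles wild type, triangles mutant), with exact 95% binomial intervals. In Hoxd wild type 4 (0%) and mutant 3 (5.36%) lie below the other 6 libraries, which run from 24.3% to 32.0%.

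Other measures of these 2 libraries were set beside the low values. Fibroblast markers summed to 1248 CPM in wild type 4, above the 625 to 801 CPM of the other wild types, and to 803 CPM in mutant 3, below the 995 to 1197 CPM of the other mutants. In the same order, endothelial markers had 91.6 against 63.4 to 73.0 CPM, and 67.1 against 84.4 to 102 CPM. Immune cell markers had 68.4 against 39.9 to 50.1 CPM, and 49.7 against 63.1 to 82.1 CPM. Satellite glia markers were low in mutant 3 (565 against 711 to 802 CPM). In wild type 4, satellite glia and sensory neuron markers lay within the range of the other wild types. Reads in wild type 4 (6749473) and mutant 3 (6494377) lay within the range of the others. Xist, transcribed from the inactive X chromosome of females, had 1729 reads in wild type 4 and 4 in mutant 3. Over all libraries it had 1615, 2, 1729 and 1671 reads in wild types and 1902, 1886, 4 and 7 in mutants. By this transcript wild type 3 and mutants 3 and 4 were male and the others female, so sex was not balanced between genotypes. Of genes outside the lists, Zbtb16 and Fkbp5, both looked at after the low values were seen, were lowest of their genotype in these libraries. Zbtb16 had 15.6 CPM in wild type 4, against 47.1 to 49.3 CPM in other wild types, and 43.9 CPM in mutant 3, against 82.8 to 107 CPM in other mutants. Fkbp5 had 52.9 CPM against 77.2 to 93.4 CPM and 93.2 CPM against 128 to 169 CPM. The part of any of these measures in the Hoxd10 values was not tested. Zbtb16 and Fkbp5 are set further below against a summed level that contains Hoxd10, a choice made after the low values were seen.

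With the log2 level of Hoxc10, Hoxc11, Hoxd10 and Hoxd11 together as a term beside genotype, chosen after these values were seen, the genotype term again called 0 Hox genes. The genes that make up the level are adjusted for themselves, so the fit is no check of them. That level itself was called for 0.0133% of all genes tested, and Hoxd10, which is part of it, was the 1 Hox gene among them.

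The wider Hox machinery was read off the same fit, and none of its listed genes passed the test in either direction. Over all genes tested, 5.46% passed it and 21.3% had an unadjusted p under 0.05, the shares to set beside the counts below. All 9 cofactors of the Pbx, Meis and Pknox families were tested, with 5 higher, 4 lower and 4 at an unadjusted p under 0.05. Pknox2, the most abundant at 105 ± 4.64 CPM in wild type and 93.6 ± 8.46 CPM in mutant (SD, n = 4 each), differed by -0.17 (SE 0.070, limma adjusted p = 0.179). Of 18 genes of retinoid, Cdx and Gdf11 signalling, 13 were tested, with 10 higher, 3 lower and 5 at an unadjusted p under 0.05. The receptor gene Rxra had 42.9 ± 1.51 CPM in wild type and 52.4 ± 6.16 CPM in mutant, a difference of 0.28 (SE 0.085, limma adjusted p = 0.0699). Cdx2 and Cdx4, which start the tail-end Hox genes in the embryo, had no read in any sample.

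Of 30 Polycomb genes 29 were tested, 16 higher and 13 lower, with 1 at an unadjusted p under 0.05. Cbx6, the most abundant, had 250 ± 8.83 CPM in wild type and 246 ± 6.10 CPM in mutant (difference -0.02, SE 0.050, limma adjusted p = 0.869). All 13 genes of the Trithorax list, which also holds H3K27 demethylases and Ctcf, were tested, 8 higher and 5 lower, and 0 reached an unadjusted p under 0.05. Kmt2d, a histone H3K4 methyltransferase and the most abundant, had 348 ± 47.2 CPM in wild type and 309 ± 49.7 CPM in mutant (difference -0.18, SE 0.112, limma adjusted p = 0.395).

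Noncoding RNAs of the clusters were scarce. Of 20 listed, 17 were in the table and 4 were tested (Haglr, Hoxaas2, Hoxaas3 and Hoxd3os1), 3 higher and 1 lower and 0 at an unadjusted p under 0.05. Haglr, transcribed beside Hoxd1 and Hoxd3 and the most abundant, had 51, 41, 27 and 41 reads in wild types and 33, 43, 42 and 43 in mutants. Its difference was 0.16 (SE 0.203, limma adjusted p = 0.711). Hotair, which lies between Hoxc11 and Hoxc12, had 0 to 2 reads per sample. Of 21 genes beside the clusters, 20 were in the table and 16 were tested, 9 higher and 7 lower, with 4 at an unadjusted p under 0.05. Cbx5, the most abundant, had 213 ± 7.53 CPM in wild type and 232 ± 5.70 CPM in mutant (difference 0.12, SE 0.051, limma adjusted p = 0.184).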

How the data were processed

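RNA from 8 samples (4 wild type, 4 mutant, 6 months old) was extracted as total RNA and read single-end, per the labels' protocols. The 1 table the authors deposited gives moderated log2 CPM per gene, per its name and values: log2 of reads scaled to a common library total after a prior count, here averaging 2.0 reads, was added. The submitters' processing notes name Salmon 0.11.1, DESeq2 and the build mm9, without roles. The table's 41422 lines hold 40800 gene identifiers, and 402 listed more than once with the same values were used once. Whole reads were recovered from the steps between values (100% within 0.02 of a whole number, for values below 1000 reads), so 1 read is worth 0.125 to 0.162 CPM. Library totals were 6183618 to 7983821 reads. Reads are not independent molecules, so intervals and floors cover counting error only.

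Columns were matched to samples by genotype and number. For mutant against wild type, limma 3.58.1 (R 4.3.3) was fitted with an intensity-dependent prior variance and without covariates, two-sided, to the 15030 genes with log2 CPM above 0 in at least 4 of 8 samples. Benjamini-Hochberg adjustment ran over all of them, and an adjusted p under 0.05 was a call. Folds on this scale understate changes of genes with few reads. Exon lengths, overlaps and coordinates are from GENCODE M21 (GRCm38), not the authors' build, and place the genes only. Promoters are from RefSeq. The script was tested on simulated data. Python 3.11.15, numpy 2.4.6, pandas 2.3.3, scipy 1.17.1 and matplotlib 3.10.9 were used.

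The Hox genes, the other gene lists and the tests were chosen with earlier results of these data known. Values in every sample are given for Hox genes called, the 4 with the largest difference, the highest in CPM and in number per cluster, and groups 10 to 13 with at least 3 reads in any sample, and of each other list for called members and the most abundant. Hoxb6, with the smallest p, was added after its values were seen. Alternatives covered the filter, a pseudocount of 1 CPM, centring, quantile normalization, the variance model, Xist as a covariate, voom, thresholds, each sample left out and a replicate block. Leaving out both wild type 4 and mutant 3, and the level of Hoxc10, Hoxc11, Hoxd10 and Hoxd11 as a covariate, were added after seeing the data. Values of 1 Hox gene and of some listed genes are not reported here.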

Additional observations from a re-analysis of the deposited data

Results flagged for a closer look

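In groups of 4, a sample was singled out when its gap to the nearest other exceeded Dixon's 95% criterion. This happened in 4 of 78 groups, where chance gives 3.9. In wild type, Hoxa10 log2 CPM was 2.80 in wild type 4 against 3.43 to 3.56 in the other 3, the summed level of groups 10 to 13 was 8.74 CPM against 19.2 to 21.0 CPM, and the share of groups 10 to 13 in Hoxa was 27.4% against 37.1% to 38.8%. These 3 values share reads of Hoxa10 and 1 library, so they are not separate observations. Hoxa9 log2 CPM was 4.34 in wild type 8 against 4.14 to 4.16 in the other wild types. No value of Hoxd10, of Hoxd11, of the Hoxd share or of mutant 3 was singled out by this rule.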

How the results depend on the processing

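No Hox gene was called under any of the 21 alternatives, with 0 to 2 at an unadjusted p under 0.05 and a smallest limma adjusted p of 0.142 (Hoxb6, without wild type 8). Among these, the fit with the tail-end Hox level as a covariate is no check of Hoxc10, Hoxd10 and Hoxd11, which are part of that level. The count over all genes, 820, was 142 with a constant prior variance, 1488 at a threshold of 0.1, and 404 to 935 with 1 sample left out (457 when this was mutant 1, 501 for mutant 4, 404 for wild type 1 and 495 for wild type 3). Without both wild type 4 and mutant 3 it was 1108, of which 641 were among the 820. These 1108 were 713 higher and 395 lower in mutants, beside 423 and 397 in the main fit. Among listed genes of the Hox machinery 0 were called, but 1 after median centring (Snx11), 1 at the threshold of 0.1 (Rxra), 2 with no filter (Cyp26a1 and Cyp26c1), 2 without wild type 4 and mutant 3 (Rxra and Aldh1a2), and 0 to 1 with 1 sample left out (Rxra without mutant 3, Aldh1a2 without wild type 4). The difference in summed level of groups 4 to 8, 0.089 log2, was -0.0030 after median centring.

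Signs of uncalled differences turned as follows. Hoxc10 was -0.0204 with quantile normalization. Hoxd10 was -0.0266 with median centring, -0.0744 with quantile normalization, -0.0608 on log2 of CPM plus 1 and -0.26 without wild type 4 and mutant 3. With the tail-end Hox level as a covariate Hoxd10 was -0.11, but it is part of that level, so this fit is no check of its difference. Hoxd11 was 0.19 with voom. With 1 sample left out the ranges were -0.122 to 0.0382 for Hoxb9, -0.10 to 0.33 for Hoxc10, -0.78 to 0.59 for Hoxd10 and -0.60 to 0.37 for Hoxd11. Samples 1, 3 and 4 of both genotypes share a number, and same-numbered samples correlated at 0.081, 0.041 and 0.058 after group means were removed, with 2 of 6 samples closest to their own number, so the numbers were not taken to pair them. A fit with the number as a block on these 6 samples called 671 genes, 447 without the block, and 0 Hox genes in both. In the fits with and without the block Hoxa10 was 0.0145, Hoxc10 -0.0137 and Hoxd11 0.0958. At this depth the 12 untested Hox genes, with at most 9 reads, and the interval of Hoxd10 limit what could be seen.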

Other observations

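The summed level of Hoxc10, Hoxc11, Hoxd10 and Hoxd11, as log2 of 1 plus CPM, was put into the model beside genotype, a choice made after the low values of wild type 4 and mutant 3 were seen. Genotype then called 747 genes, of which 711 were among the 820 called without it. The tail-end Hox level itself was called for 2 of 15030 genes (0.0133%), beside 589 at an unadjusted p under 0.05 (3.92%). Hoxd10 was 1 of these (limma adjusted p = 0.00583) and is part of the covariate. The other was Zbtb16, whose zinc finger protein is known from limb and axial patterning and whose transcript is known to be induced by glucocorticoids. Zbtb16 had 47.6, 47.1, 15.6 and 49.3 CPM in wild types and 107, 82.8, 43.9 and 87.8 CPM in mutants. Wild type 4 and mutant 3 were each the lowest of their genotype. Its coefficient on the tail-end Hox level was 0.84 (limma adjusted p = 0.0206). That level was 1.62 in wild type 4 and 1.97 in mutant 3, against 2.98 to 3.46 in the other libraries. It mostly sets apart the 2 libraries already singled out, so this p-value is no separate support for a link with Hox genes. The difference of Zbtb16 between genotypes in the model without that level was 1.07 (SE 0.319, limma adjusted p = 0.0657). Fkbp5, also known to be induced by glucocorticoids and singled out after its values were seen, had 77.2, 93.4, 52.9 and 77.8 CPM against 169, 146, 93.2 and 128 CPM. Its coefficient of 0.39 did not pass the test (limma adjusted p = 0.943), and its difference between genotypes was 0.83 (SE 0.169, limma adjusted p = 0.0118).

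Both of the retinoic acid-degrading enzymes that fell under the filter had more reads in mutants. Cyp26a1 had 1 read in each wild type and 9, 4, 6 and 5 reads in mutants 1, 2, 3 and 4. Cyp26c1 had 1, 0, 2 and 3 reads in wild types and 4, 6, 6 and 7 in mutants. The groups did not overlap for either gene, as was also so for 12.4% of all genes tested, which do not include this pair. All wild-type counts were at or under the floor of 3 reads, and the pair was singled out after its values were seen. Cyp26b1, the family member that was tested, had 65, 74, 82 and 55 reads against 74, 46, 59 and 84 reads (difference 0.04, SE 0.184, limma adjusted p = 0.936).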
